A study of Mus musculus with 16 samples.

Results

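NR4A and EGR proteins are transcription factors whose genes are switched on within minutes to hours of a signal at the cell surface. A group of 9 such genes was read in RNA-seq counts of DN3 thymocytes, the CD4-CD8-CD25+CD44- T-cell progenitors in which Lmo2 leukemia arises in mice. The genes were taken by symbol from 22114 genes in each of 2 count tables, and all 9 were found in both. They are the nuclear receptors Nr4a1, Nr4a2 and Nr4a3, the zinc finger factors Egr1, Egr2 and Egr3, the EGR corepressor Nab2, and the immediate early response genes Ier2 and Ier3. All mice were C57BL/6. In the genotype experiment, total DN3 cells came from wild-type mice (3 libraries), mice lacking p21 (p21-/-, 2 libraries), mice carrying the CD2-Lmo2 transgene (Lmo2Tg, 2 libraries) and transgenic mice lacking p21 (Lmo2Tg;p21-/-, 2 libraries). In the GFP experiment, DN3 cells of mice with both TetOP-H2B-GFP and the CD2-Lmo2 transgene were sorted after 6 weeks on doxycycline and a chase of 2 weeks into GFPhi cells, which keep the label because they divide rarely, and GFPlo cells, which have diluted it (3 libraries each). Every GFP library therefore carried the transgene. The transgene is driven by the CD2 promoter, so it is on in T-lineage cells, and p21 loss was present in all cells of the mouse. The genotype mice were 6 weeks old, and a figure legend of the study gives 2 months for the GFP mice. For its global expression profiling the study describes RNA of sorted cells pooled from 3 to 5 mice, in a passage written for arrays, so p-values measure the spread between these libraries.

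The NR4A receptors bind DNA without a known natural ligand, and in T cells the level of Nr4a1 follows the strength of antigen receptor signalling. EGR factors are induced through the MAP kinase pathway by the pre-T-cell receptor and by the mature receptor, and in the thymus Egr1, Egr2 and Egr3 take part in the passage of DN3 cells through beta-selection. NAB2 binds EGR proteins and represses their targets, and is itself a target of EGR1, which makes a feedback loop. The transcripts of most of these genes are short lived, so their level also responds to the handling of cells between tissue and lysis.

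RefSeq windows of 300 bases around transcription start sites (250 before and 50 after, GRCm38.p6) were at hand for 6 of the 9 members. The sequences of 4 of these members, Nr4a1, Nr4a2, Nr4a3 and Egr2, are shown because a short motif occurs there. The 5 bases TGACG are the core of the cAMP response element, bound by CREB and ATF proteins. On both strands they stood 4 times in the window of Nr4a1, 4 times in that of Nr4a2 and 4 times in that of Nr4a3. They stood 2 times in 3 of the 5 windows of Egr2, of which the first by position is shown, and not at all in the windows of Ier3 and Nab2. Of all 32851 windows, 20.8% held the core at least once and 1.03% held it 3 times or more. The whole palindrome TGACGTCA was in 1.79% of windows and in none of the members'. Capitals below mark TGACG, or CGTCA where it is read on the opposite strand, and only bases before the start site and outside annotated exons are printed, which leaves 1 of the 4 matches of Nr4a3 out.
Nr4a1, chr15:101266596-101266845, plus strand: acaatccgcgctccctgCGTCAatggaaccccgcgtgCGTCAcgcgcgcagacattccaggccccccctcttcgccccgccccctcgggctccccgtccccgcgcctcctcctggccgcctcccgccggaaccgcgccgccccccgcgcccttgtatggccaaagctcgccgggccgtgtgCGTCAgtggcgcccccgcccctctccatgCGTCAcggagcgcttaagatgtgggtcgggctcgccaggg
Nr4a2, chr2:57124004-57124253, minus strand: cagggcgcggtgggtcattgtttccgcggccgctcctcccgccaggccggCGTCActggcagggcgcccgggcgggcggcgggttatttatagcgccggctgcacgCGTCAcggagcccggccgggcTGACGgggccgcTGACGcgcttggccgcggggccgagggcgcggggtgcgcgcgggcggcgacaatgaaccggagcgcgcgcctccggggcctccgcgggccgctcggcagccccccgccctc
Nr4a3, chr4:48045055-48045152, plus strand: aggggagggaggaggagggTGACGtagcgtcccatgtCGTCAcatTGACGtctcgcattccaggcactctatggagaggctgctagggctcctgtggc
Egr2, chr10:67537619-67537868, plus strand: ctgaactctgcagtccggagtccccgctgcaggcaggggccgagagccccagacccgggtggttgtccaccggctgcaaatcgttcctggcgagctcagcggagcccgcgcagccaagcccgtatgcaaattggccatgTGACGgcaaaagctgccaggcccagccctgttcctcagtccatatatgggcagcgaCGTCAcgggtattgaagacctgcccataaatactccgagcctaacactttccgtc

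In the Egr2 stretch the matches to the core ended 107 and 51 bases before the start site, and the window also held a CArG box, the site of serum response factor, which 1.63% of windows contained. The EGR motif GCGNGGGCG was found 1 time in the windows of Nr4a1 and Nr4a2 and in 5.55% of all windows. The NR4A motif AAAGGTCA (1.51% of windows) and the AP-1 motif TGANTCA (7.81%) were in no window of a member. These are matches of letters and were not tested for binding.

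On the mm10 (GRCm38) assembly, Nr4a1 lay at chr15:101254269-101274795 on the plus strand, Nr4a2 at chr2:57106830-57124003 on the minus strand and Nr4a3 at chr4:48045153-48086447 on the plus strand. Egr1 lay at chr18:34859823-34864984, Egr2 at chr10:67535475-67542188 and Egr3 at chr14:70077203-70082614, all on the plus strand. Nab2 lay at chr10:127660918-127668568 and Ier2 at chr8:84661331-84662852, both on the minus strand, and Ier3 at chr17:35821684-35822923 on the plus strand. All counts are over exons. In GENCODE M21, Nab2 alone among the members overlapped other genes, sharing 40 exonic bases with Stat6, 151 with Nemp1 and 1050 with the antisense gene Gm16229 (not analysed here), all on the opposite strand. The names of the count tables point to reverse-stranded counting for the GFP experiment and to counting without strand for the genotypes, and no other source used here states it. In the genotype table reads in the shared bases therefore cannot be divided between these genes.

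Total counts were 13864936 to 16837667 per genotype library and 26861394 to 31106213 per GFP library, so that 3 reads corresponded to 0.178 to 0.216 CPM and 0.0964 to 0.112 CPM (read counts scaled by library size and TMM factors). The tables were scaled separately and levels are not compared across them. Lmo2 stood at 0.0636 to 0.306 CPM in the 5 libraries without the transgene and at 41.4 to 107 CPM in the 4 with it. Cdkn1a, which encodes p21, was at 36.5 to 49.0 CPM in wild-type, 14.3 to 17.7 in p21-/-, 26.3 to 32.8 in Lmo2Tg and 3.50 to 4.35 in Lmo2Tg;p21-/- libraries, so it was lower in each group labelled p21-/- than in its counterpart, with reads remaining in both. GFPhi replicate 3 stood apart, with Lmo2 at 285 CPM against 29.5 to 53.8 in the other GFPhi libraries and Cdkn1a at 6.56 against 29.9 to 35.8. DN3 markers (Ptcra, Il2ra, Cd3e, Notch1, Rag1, Rag2, Dntt and Thy1) were present in every library, and none of the 8 was at 0.

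In wild-type DN3 cells the members covered a wide range of levels. Per kilobase of exon, Ier2 was highest at 26.0 ± 9.67 CPM (mean ± SD, n = 3), followed by Egr1 at 8.74 ± 4.66 and Nr4a1 at 7.84 ± 1.92, which did not differ beyond their spread. Nab2 (2.66 ± 0.418), Ier3 (1.80 ± 1.2), Nr4a2 (1.17 ± 0.581), Nr4a3 (0.862 ± 0.383) and Egr2 (0.687 ± 0.20) came next, and among Ier3, Nr4a2, Nr4a3 and Egr2 each lay within the spread of its neighbour. Egr3 was lowest at 0.155 ± 0.0885 CPM per kilobase. In Lmo2Tg cells Nr4a1 reached 104 ± 10.7 CPM per kilobase (n = 2), level with Ier2 at 108 ± 16.8. Egr1 was then at 38.6 ± 5.98, Ier3 at 20.4 ± 2.46, Nr4a3 at 15.4 ± 12.4 and Nr4a2 at 12.9 ± 1.91, whereas Nab2 (1.91 ± 0.465), Egr2 (0.965 ± 0.482) and Egr3 (0.173 ± 0.135) stayed low.

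To see how the transgene changes these genes, Lmo2Tg was compared with wild-type. All 3 NR4A genes, Egr1, Ier2 and Ier3 rose, by 4.17- to 17.9-fold, and Egr2, Egr3 and Nab2 did not pass the test. Nr4a1 stood at 27.0, 34.5 and 21.1 CPM in the wild-type libraries and at 392 and 339 CPM in the Lmo2Tg libraries, a log2 difference of 3.73 ± 0.37 (SE; adjusted p = 2.9e-05, edgeR's quasi-likelihood test over all genes). Its lowest Lmo2Tg value was thus far above its highest wild-type value. Nr4a2 was at 4.6, 7.19 and 2.48 CPM in wild-type and at 57.7 and 46.7 CPM in Lmo2Tg cells (log2 difference 3.46 ± 0.48, adjusted p = 0.0003). Nr4a3 was at 6.13, 6.81 and 2.54 CPM in wild-type and at 145 and 39.7 CPM in Lmo2Tg cells (4.16 ± 0.87, adjusted p = 0.0039). Both Lmo2Tg libraries lay above all wild-type libraries for Nr4a3, but they differed from each other by 3.65-fold. The lower of them was also below p21-/- replicate 2, a library without the transgene, at 54.6 CPM.

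Egr1, the most abundant EGR gene here, stood at 31.7, 62.8 and 23.1 CPM in wild-type and at 192 and 154 CPM in Lmo2Tg cells (log2 difference 2.14 ± 0.36, adjusted p = 0.0011). Egr2, which is needed with Egr3 for the survival and maturation of thymocytes, was at 1.59, 2.93 and 2.48 CPM in wild-type and at 4.44 and 2.12 CPM in Lmo2Tg cells (0.48 ± 0.36, adjusted p = 0.32), so the groups overlapped. Egr3 had between 4 and 16 reads in each of these 5 libraries (0.14 ± 0.63, adjusted p = 0.89), and a difference was not detectable at this depth. Nab2 was at 6.80, 7.51 and 9.19 CPM in wild-type and at 6.58 and 4.65 CPM in Lmo2Tg cells (-0.48 ± 0.20, adjusted p = 0.084). Every Lmo2Tg value of Nab2 lay below the wild-type values, opposite in sign to Egr1, but the difference did not pass the test.

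Ier2, a nuclear protein gene induced by growth factors, was at 38.9, 54.6 and 25.2 CPM in wild-type and at 147 and 183 CPM in Lmo2Tg cells (log2 difference 2.06 ± 0.36, adjusted p = 0.0013). Ier3, which modulates survival and ERK signalling, was at 2.21, 3.31 and 0.605 CPM in wild-type and at 25.0 and 21.1 CPM in Lmo2Tg cells (3.50 ± 0.49, adjusted p = 0.00033). In all, 6 of 9 members were called higher at a 2-fold change and an adjusted p under 0.05, and none lower, where 7.29% of the 11840 genes tested were called higher and 4.7% lower. The groups did not overlap, with Lmo2Tg higher, for the same 6 members and for 29.9% of all genes. The median log2 difference of the members was 2.14, and that of all genes -0.01. The count was 6 without any 1 of the 5 libraries. Fewer cells of a type and less RNA per cell cannot be told apart in these pools. DN3 markers moved with the transgene as well: their summed level was 8900 to 8993 CPM in wild-type and 6164 to 6677 CPM in Lmo2Tg libraries, and 6 of 8 were lower at an adjusted p under 0.05. The part of this shift in the result was not tested.

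**Figure D1:**
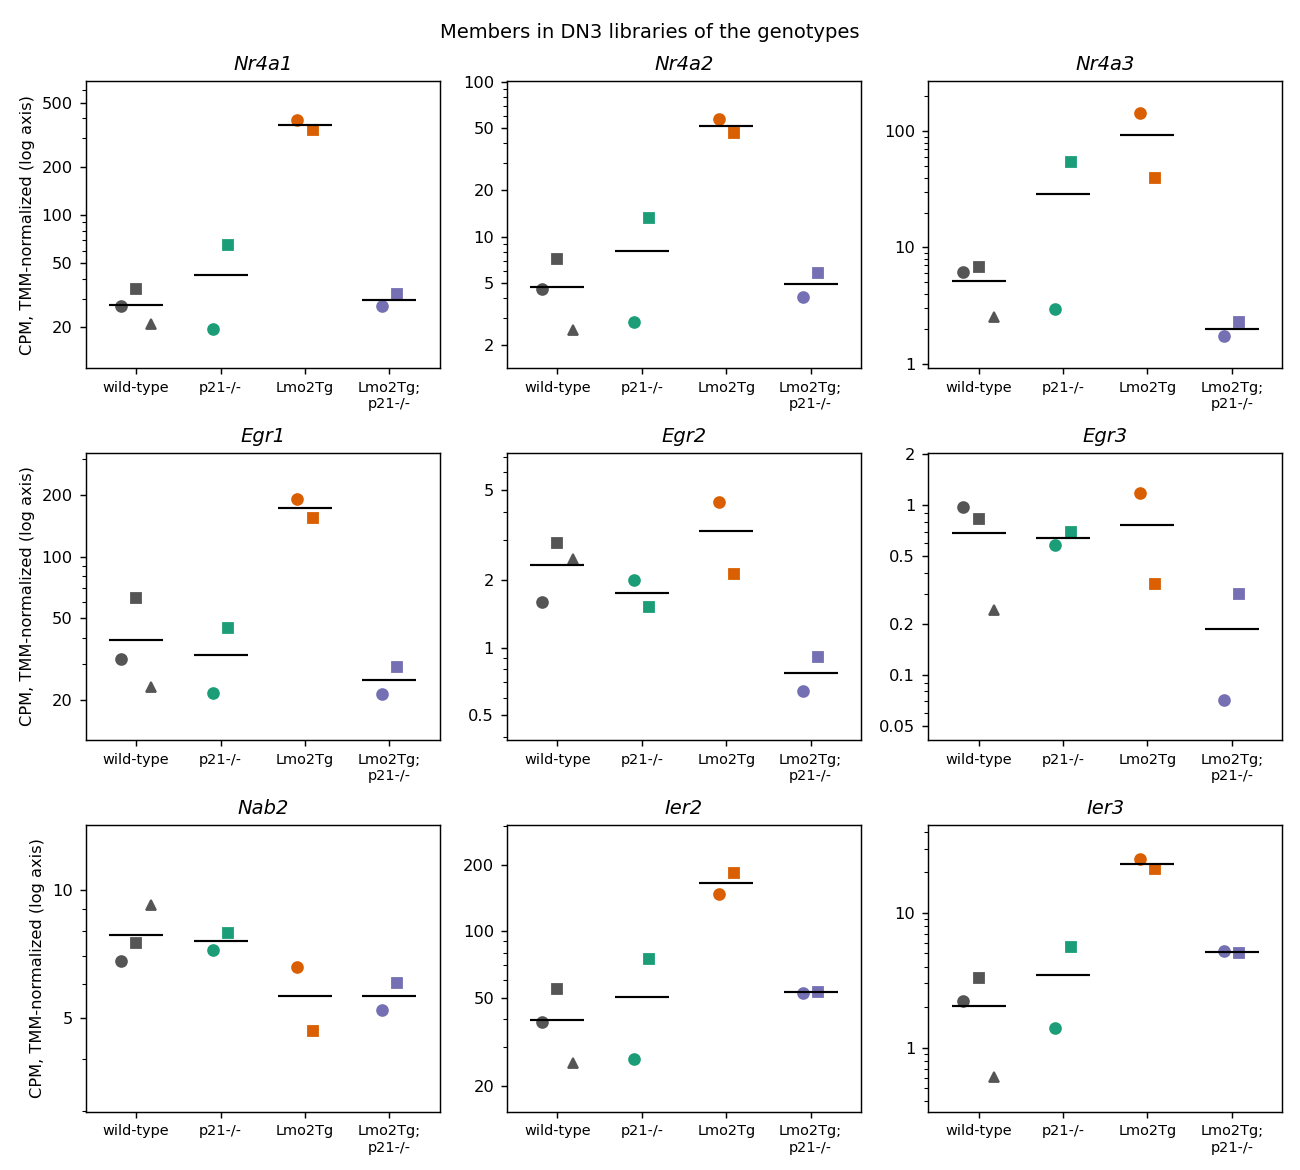
TMM-normalized CPM of the 9 members (log axis) in each genotype library, with circle, square and triangle for replicates 1, 2 and 3 (circle and square for the 2 Lmo2Tg libraries, whose numbers were not used) and a bar at the group mean. Nr4a1, Nr4a2, Nr4a3, Egr1, Ier2 and Ier3 are higher in both Lmo2Tg libraries than in every wild-type and Lmo2Tg;p21-/- library, and p21-/- replicate 2 lies above replicate 1 for the same genes. For Nr4a3, p21-/- replicate 2 also lies above the lower Lmo2Tg library.

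To see whether the higher level in transgenic cells went with p21, Lmo2Tg;p21-/- was compared with Lmo2Tg. Here 7 of 9 members fell, and their levels lay within or below the range of the libraries without the transgene. Nr4a1 was at 27.1 and 32.1 CPM in Lmo2Tg;p21-/- cells, within its wild-type range (log2 difference from Lmo2Tg -3.63 ± 0.43, adjusted p = 0.0022, edgeR's quasi-likelihood test). Nr4a2 was at 4.07 and 5.86 CPM (-3.38 ± 0.55, adjusted p = 0.0084). Nr4a3 was at 1.71 and 2.29 CPM, below every other genotype library (-5.50 ± 1.16, adjusted p = 0.022).

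Egr1 was at 21.3 and 28.9 CPM in Lmo2Tg;p21-/- cells (-2.78 ± 0.43, adjusted p = 0.0063). Egr2 was at 0.642 and 0.906 CPM, the lowest pair among the genotypes (-2.05 ± 0.46, adjusted p = 0.026). Egr2 was thus called here although it was not called between Lmo2Tg and wild-type. Egr3 had 1 and 5 reads in the Lmo2Tg;p21-/- libraries against 16 and 5 in Lmo2Tg (-1.90 ± 0.88, adjusted p = 0.2). Ier2 was at 52.7 and 52.8 CPM (-1.65 ± 0.40, adjusted p = 0.037), and Ier3 was at 5.21 and 5.07 CPM (-2.16 ± 0.51, adjusted p = 0.032). For Ier3 both libraries lay above all wild-type values. Nab2 was at 5.21 and 6.04 CPM, within its Lmo2Tg range (0.01 ± 0.23, adjusted p = 0.99).

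The 7 members called lower compare with 1.44% of all genes, and 0.431% were called higher. For 8 of 9 members both Lmo2Tg;p21-/- libraries lay below both Lmo2Tg libraries, as for 25.7% of all genes. The members' median log2 difference was -2.16, and that of all genes 0.02. With 2 libraries in each group these calls depended on single libraries. The count was 1 (Nr4a1) without Lmo2Tg;p21-/- replicate 1, 3 without its replicate 2, and 3 or 5 without either Lmo2Tg library, while every one of the 7 kept its direction. At an adjusted p under 0.01, which the study also used for a list of this contrast, 3 members (Nr4a1, Nr4a2 and Egr1) were called. Nr4a3 lost its call with limma-voom (adjusted p = 0.11), Ier3 with DESeq2 (adjusted p = 0.1) and Egr2 in edgeR on only the groups compared (adjusted p = 0.074). Heat shock genes moved in the same contrast: 7 of 10 tested were lower at an adjusted p under 0.05, none by 2-fold, and the summed level of the list was 8706 to 9673 CPM in Lmo2Tg and 5884 to 6845 CPM in Lmo2Tg;p21-/- libraries. Between Lmo2Tg and wild-type, with 8172 to 8807 CPM, 2 of 10 were higher and none lower. In p21-/- libraries, without the transgene, the sum was 8734 to 9608 CPM. Between Lmo2Tg;p21-/- and p21-/-, 6 of 10 were lower and 1 higher at an adjusted p under 0.05. Among cell markers, Lyz2 (1.38 ± 0.18), Ccr7 (1.24 ± 0.29) and Rag2 (1.11 ± 0.21) rose and S1pr1 fell (-2.29 ± 0.52) in this contrast. Myeloid sums were 19.8 to 21.1 CPM in Lmo2Tg and 25.3 to 33.2 CPM in Lmo2Tg;p21-/- libraries, and those of later thymocytes 91.3 to 99.6 and 64.1 to 77.0 CPM. The part of these genes and cells in the members' levels was not tested.

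**Figure D2:**
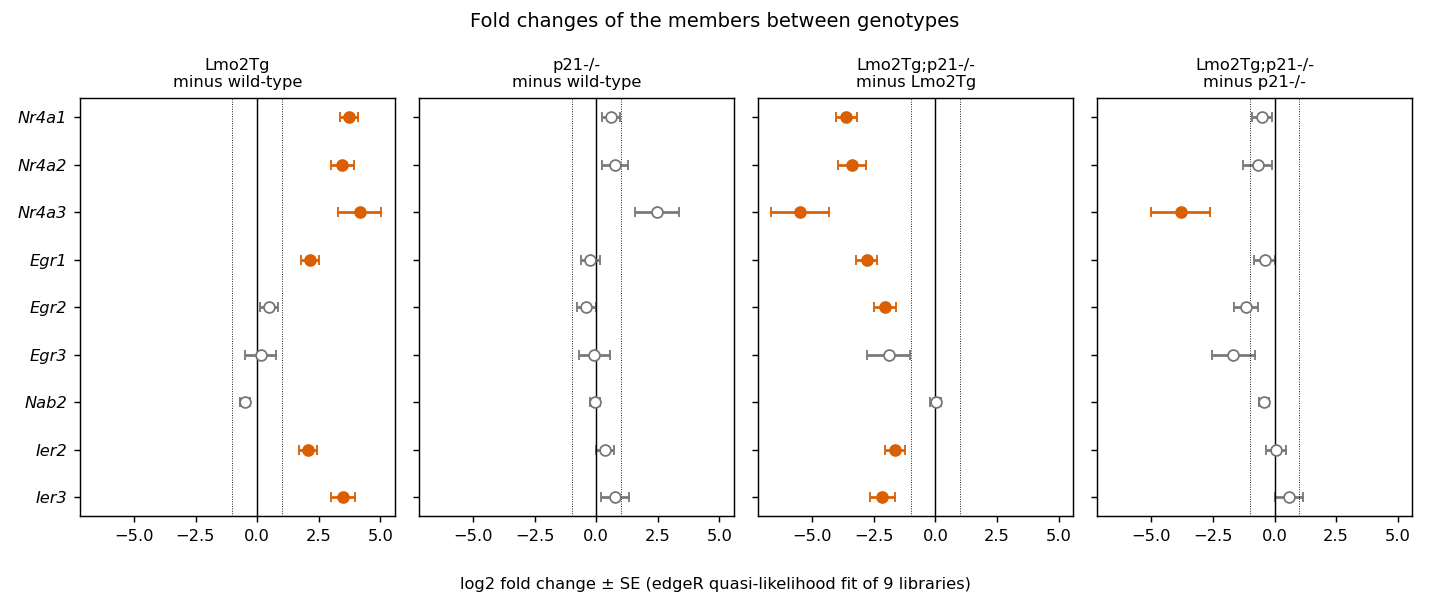
Log2 fold change ± SE of each member in the 4 genotype comparisons, from an edgeR quasi-likelihood fit of 9 libraries, with filled points for members called at a 2-fold change and an adjusted p under 0.05 and dotted lines at a 2-fold change. Points are filled for 6 members in the panel of Lmo2Tg minus wild-type, for 7 in that of Lmo2Tg;p21-/- minus Lmo2Tg, for none in that of p21-/- minus wild-type and for 1 (Nr4a3) in the last.

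Without the transgene, the loss of p21 gave no call among the members. In p21-/- cells Nr4a1 was at 19.4 and 64.8 CPM, a mean of 42.1 ± 32.2 (SD, n = 2), against 27.5 ± 6.73 (n = 3) in wild-type (log2 difference 0.61 ± 0.37, adjusted p = 0.98). The 2 p21-/- libraries disagreed for most members, and replicate 2 was the higher. Its ratio to replicate 1 was 18.6 for Nr4a3 (54.6 against 2.93 CPM), 4.72 for Nr4a2 (13.3 against 2.81 CPM), 3.96 for Ier3, 3.35 for Nr4a1, 2.83 for Ier2 and 2.08 for Egr1. For Egr2, Egr3 and Nab2 the ratio was 0.762, 1.19 and 1.10. Replicate 2 also held more of the other immediate-early genes (3766 against 2040 CPM in sum). Both sums lay within the wild-type range of 1690 to 3768 CPM. Erythroid markers were higher in replicate 2 as well (25.5 against 3.93 CPM, with at most 8.70 CPM in any other genotype library). The part of these genes and markers in the difference was not tested. Of the 9 members none was called by edgeR, DESeq2 or limma-voom, 1 (Nr4a3, log2 difference 2.47 ± 0.89) had an unadjusted p under 0.05 (3.3% of all genes did), and 0.101% of all genes were called in either direction. Without p21-/- replicate 2 the log2 differences of Nr4a1, Nr4a2 and Nr4a3 were -0.51, -0.75 and -0.81, and without replicate 1 they were 1.23, 1.48 and 3.40, with no member called in either case.

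The difference between the effects of p21 loss with and without the transgene was tested as an interaction. It was called, and negative, for Nr4a1 (-4.23 ± 0.55, adjusted p = 0.018, edgeR's quasi-likelihood test), Nr4a2 (-4.13 ± 0.76, adjusted p = 0.033) and Nr4a3 (-7.98 ± 1.46, adjusted p = 0.033). It did not pass for Egr1 (-2.53 ± 0.56, adjusted p = 0.059), Ier3 (-2.93 ± 0.76, adjusted p = 0.091), Ier2 (-1.99 ± 0.54, adjusted p = 0.099) or Egr2 (-1.65 ± 0.60, adjusted p = 0.19). Nab2 was near 0 (0.06 ± 0.30). Of all genes 0.726% were called lower in the interaction and 0.076% higher. These calls rested on few libraries. The count of 3 became 0 without Lmo2Tg;p21-/- replicate 1 or 2 or wild-type replicate 1 or 3, 1 without Lmo2Tg library a or p21-/- replicate 2, and 6 without p21-/- replicate 1. No member was called at an adjusted p under 0.01. Only Nr4a1 was called without p21-/- replicate 2 (-3.12, adjusted p = 0.0038), while Nr4a2 was then at -2.63 (adjusted p = 0.19) and Nr4a3 at -4.69 (adjusted p = 0.24).

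In the absence of p21, cells with and without the transgene gave 1 call among the members. Between Lmo2Tg;p21-/- and p21-/-, Nr4a3 alone was called, lower (log2 difference -3.82 ± 1.18, adjusted p = 0.031, edgeR's quasi-likelihood test), against 4.24% of all genes lower and 6.15% higher. That call was lost without p21-/- replicate 2 (-0.54, adjusted p = 0.76) and without either Lmo2Tg;p21-/- library, and 3 members were called without p21-/- replicate 1. Nr4a1 differed by -0.50 ± 0.41, Nr4a2 by -0.67 ± 0.59, Egr1 by -0.39 ± 0.43, Ier2 by 0.07 ± 0.40 and Ier3 by 0.57 ± 0.57, with groups that overlapped. For Egr2 (-1.16 ± 0.48, adjusted p = 0.091 in the same test), Egr3 (-1.67 ± 0.88, adjusted p = 0.18) and Nab2 (-0.42 ± 0.22, adjusted p = 0.17) both Lmo2Tg;p21-/- libraries lay below both p21-/- libraries. These differences did not pass the test. These comparisons share control libraries with those above.

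Other immediate-early genes, a list of 38 without the members, moved in the same direction between genotypes. Between Lmo2Tg and wild-type, 28 of 38 rose and none fell by 2-fold, with a median log2 difference of 2.22. Trib1, a scaffold that directs C/EBP proteins to degradation, rose by 3.65 ± 0.43, Klf2, a quiescence and migration factor, by 3.33 ± 0.45, the kinase gene Sik1 by 3.12 ± 0.74, Rgs1, an inhibitor of G protein signalling, by 3.08 ± 0.62 and Atf3, a stress-induced factor, by 3.05 ± 0.73. Between Lmo2Tg;p21-/- and Lmo2Tg, 19 of 38 fell and none rose. The largest log2 differences were those of Atf3 (-5.57 ± 1.19), Fosl2 (-5.09 ± 0.98), Sik1 (-4.22 ± 0.92), Plk2 (-3.67 ± 0.95) and Trib1 (-3.32 ± 0.49). This count was 0 without Lmo2Tg;p21-/- replicate 1, 4 without its replicate 2, and 18 or 12 without either Lmo2Tg library. In the interaction 12 of 38 were lower, led by Fosl2 (-6.60 ± 1.21), Trib1 (-3.94 ± 0.65), Nfkbia (-3.69 ± 0.69), Tnfaip3 (-3.46 ± 0.68) and Dusp5 (-3.38 ± 0.57). Of these, Nfkbia and Tnfaip3 encode inhibitors of NF-kB and Dusp5 a phosphatase of ERK. This count too was 0 without Lmo2Tg;p21-/- replicate 1 or 2 or wild-type replicate 1 or 3, and it was 21 without p21-/- replicate 1 and 2 to 8 without any other library.

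A few genes of that list kept a transgene difference without p21. Klf2 was at 2.72 to 10.7 CPM in wild-type, 3.54 and 3.64 in p21-/-, 35.1 and 82.0 in Lmo2Tg and 42.6 and 31.9 in Lmo2Tg;p21-/- libraries. Between Lmo2Tg;p21-/- and p21-/- it rose by 3.37 ± 0.55 on the log2 scale, and Btg1, an antiproliferative gene, by 2.13 ± 0.20. Fosl2 fell in that comparison (-3.76 ± 1.01), and the other 35 genes were not called. The fall of Fosl2 rested on p21-/- replicate 2: it was at 2.81 and 25.2 CPM in p21-/- and at 1.36 and 0.725 CPM in Lmo2Tg;p21-/- libraries. With limma-voom 0 genes of the list were called lower. The list's median log2 difference in that comparison was -0.26, and 0.47 without p21-/- replicate 2.

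**Figure D3:**
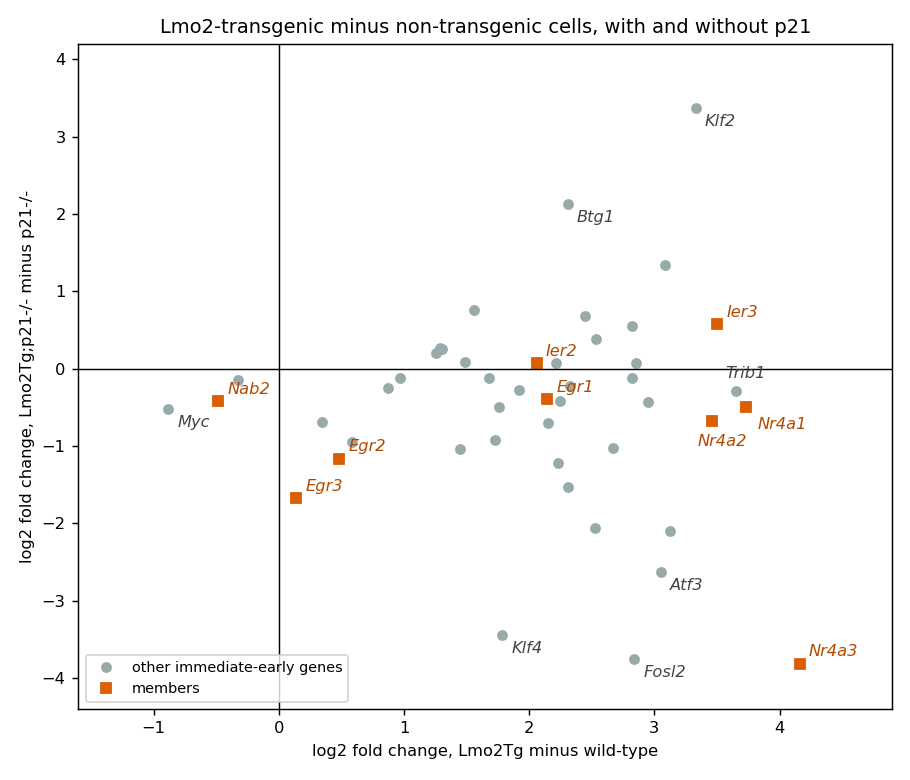
Log2 fold change of Lmo2Tg minus wild-type (x axis) against Lmo2Tg;p21-/- minus p21-/- (y axis) for the 9 members (squares) and 38 other immediate-early genes (circles). Most genes lie to the right of 0 on the x axis and near or below 0 on the y axis, while Klf2 and Btg1 lie high on both.

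Calls among the regulators and relatives of EGR and NR4A genes were few, as they were among all genes. The 16 such genes included Srf, its partners Elk1, Elk3 and Elk4, Creb1, Mef2c, Mef2d, the NFAT genes and the relatives Egr4 and Nab1. Only Crem was called between Lmo2Tg and wild-type (higher by 1.30 ± 0.20), where 7.29% of all genes were higher and 4.7% lower. None was called between Lmo2Tg;p21-/- and Lmo2Tg (0.431% of all genes higher, 1.44% lower) or in the interaction (0.076% higher, 0.726% lower). Crem encodes cAMP-responsive repressors and activators. Mef2c was lower in Lmo2Tg;p21-/- than in p21-/- cells (-1.81 ± 0.22), where 6.15% of all genes were called higher and 4.24% lower. At an adjusted p under 0.05 alone, 4 of the 16 were higher and 2 lower between Lmo2Tg and wild-type. The count of all genes without a minimum fold is given in the closing section on processing. These regulator counts are not read as particular to the list. Mef2c was among the lower, just under 2-fold (-0.998 ± 0.207, adjusted p = 0.0036, edgeR's quasi-likelihood test). Egr4 did not pass between Lmo2Tg and wild-type (1.70 ± 0.76, adjusted p = 0.1) or between Lmo2Tg;p21-/- and Lmo2Tg (-4.57 ± 1.30, adjusted p = 0.06), though the groups did not overlap.

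Genes known as targets of EGR or NR4A factors in T cells gave no common direction. Of 18, 3 rose and 2 fell between Lmo2Tg and wild-type, and the list's median log2 difference was 0.24. Fasl, a death ligand gene, rose by 3.50 ± 0.41, Cd5, a receptor that tracks T-cell receptor signal strength, by 1.40 ± 0.08 and Id2, an inhibitor of E proteins, by 1.37 ± 0.25. Pdcd1, which encodes PD-1, fell (-1.71 ± 0.22), as did Ndrg1 (-1.44 ± 0.11). Between Lmo2Tg;p21-/- and Lmo2Tg only Id2 was called (-1.95 ± 0.29), and it was also the only target called in the interaction (-2.30 ± 0.39). Cd5 remained high without p21: it was at 23.8 to 24.8 CPM in wild-type, 62.9 and 65.2 in Lmo2Tg and 69.4 and 70.6 in Lmo2Tg;p21-/- libraries. Between Lmo2Tg;p21-/- and p21-/-, 5 targets rose and 4 fell. The largest were Fasl (2.02 ± 0.50), Ndrg1 (-1.64 ± 0.12), Cd5 (1.63 ± 0.09), Tnfsf10 (1.44 ± 0.20) and Ikzf2 (1.24 ± 0.16).

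In the GFP experiment, where all cells carried the transgene, GFPhi was compared with GFPlo to see how the members differ between rarely and often dividing DN3 cells. Egr1, Egr2 and Nr4a3 were higher in GFPhi cells at an adjusted p under 0.05, but no member met the call of a 2-fold change and an adjusted p under 0.01. Egr1 was at 82.4, 72.2 and 37.7 CPM in GFPhi replicates 1, 2 and 3 and at 21.6, 15.2 and 14.8 CPM in GFPlo (log2 difference 1.90 ± 0.32, adjusted p = 0.017, edgeR's quasi-likelihood test). Nr4a3 was at 5.33, 4.57 and 2.98 CPM in GFPhi and at 1.89, 1.61 and 1.55 CPM in GFPlo (1.35 ± 0.26, adjusted p = 0.025). Egr2 was at 1.29, 1.74 and 0.931 CPM in GFPhi and at 0.444, 0.524 and 0.580 CPM in GFPlo (1.35 ± 0.32, adjusted p = 0.042). For these 3 genes the groups did not overlap, and GFPhi replicate 3 was the lowest of its group.

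Nr4a2 was at 2.68, 1.43 and 2.98 CPM in GFPhi and at 1.26, 0.454 and 0.483 CPM in GFPlo, also without overlap (1.69 ± 0.51, adjusted p = 0.073). Egr3 had 7, 10 and 8 reads in the GFPhi libraries and 2 in each GFPlo library, too few to be tested. Nr4a1 was at 55.9, 57.9 and 23.5 CPM in GFPhi and at 36.5, 31.0 and 27.1 CPM in GFPlo (0.54 ± 0.35, adjusted p = 0.32). Nab2 was at 34.8, 31.8 and 7.38 CPM in GFPhi and at 12.7, 12.6 and 11.5 CPM in GFPlo (1.01 ± 0.54, adjusted p = 0.24). In both Nr4a1 and Nab2 a pair of GFPhi libraries lay above the GFPlo range and replicate 3 lay below it. Ier3 was at 4.59, 2.90 and 14.9 CPM in GFPhi and at 9.06, 8.10 and 7.50 CPM in GFPlo (-0.14 ± 0.59, adjusted p = 0.89), the reverse arrangement. Ier2 was at 86.4, 79.1 and 77.9 CPM in GFPhi and at 79.6, 70.2 and 61.2 CPM in GFPlo (0.21 ± 0.11, adjusted p = 0.23).

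Of the 8 members tested, 0 were called by edgeR or limma-voom, where edgeR called 0.302% of 11581 genes higher and 1.95% lower. DESeq2 called 2 (Egr1 and Nr4a3), but it also called more of all genes than edgeR, as counted in the closing section on processing. At an adjusted p under 0.05 alone, 3 members were higher, as were 5.37% of all genes, and 4 had an unadjusted p under 0.05, as did 33.4% of all genes. The groups did not overlap, with GFPhi higher, for 4 of the 8 and for 19.6% of all genes. The count of 3 at an adjusted p under 0.05 became 0 without GFPlo replicate 2 or 3, 1 (Egr1) without GFPhi replicate 1 or 2 or with a replicate block, and 2 without GFPlo replicate 1 or with limma-voom. The members' median log2 difference was 1.18, against 0.02 for all genes. Without GFPhi replicate 3, 4 members were called higher and 1 lower, where 2.7% and 6.11% of 11745 genes were. These were Egr1 (2.17, adjusted p = 0.0002), Nr4a3 (1.56, adjusted p = 0.0012), Egr2 (1.55, adjusted p = 0.0065), Nab2 (1.45, adjusted p = 0.0001) and Ier3 (-1.13, adjusted p = 0.0069). Nr4a1 was then higher by 0.86 (adjusted p = 0.002), under 2-fold. Nr4a1 lies on chromosome 15 and Nr4a2 on chromosome 2, and the median log2 difference of tested genes was -0.43 on chromosome 15 and -0.18 on chromosome 2.

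**Figure D4:**
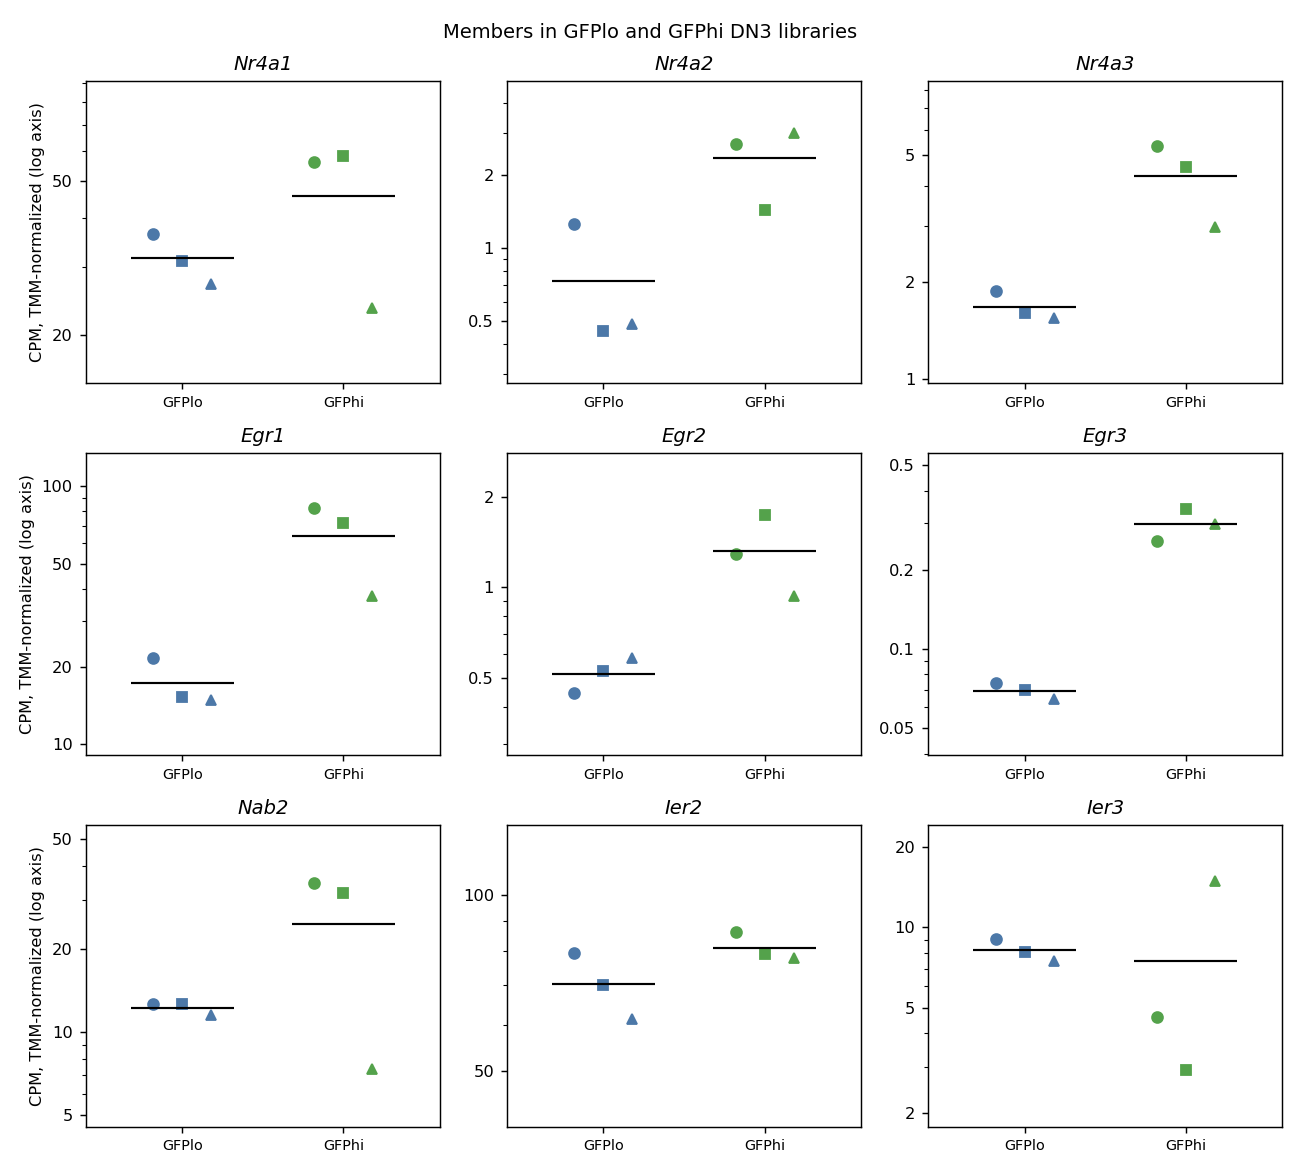
TMM-normalized CPM of the 9 members (log axis) in GFPlo and GFPhi libraries, with circle, square and triangle for replicates 1, 2 and 3 and a bar at the group mean. All GFPhi points lie above all GFPlo points for Nr4a2, Nr4a3, Egr1, Egr2 and Egr3, and the GFPhi triangle lies below the GFPlo points for Nr4a1 and Nab2 and above them for Ier3.

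The other gene lists held few calls between GFPhi and GFPlo. Of 37 immediate-early genes tested none was called, 5 were higher and 1 lower at an adjusted p under 0.05, and without GFPhi replicate 3, 2 were called higher and 1 lower. No regulator was called. None of 10 heat shock genes was called, but 3 were higher and 2 lower at an adjusted p under 0.05. Their sum was 5776 and 5775 CPM in GFPhi replicates 1 and 2, 4560 CPM in replicate 3 and 4661 to 4950 CPM in GFPlo. Replicate 3 thus lay below the GFPlo range, as it did for Nr4a1 and Nab2. The sum of the immediate-early list was instead highest in GFPhi replicate 3, at 3828 CPM. It was 2817 and 2710 CPM in replicates 1 and 2 and 2377 to 2747 CPM in GFPlo. Markers of later thymocytes summed to 87.4 CPM in GFPhi replicate 3. They were at 163.7 and 181.5 CPM in replicates 1 and 2 and 161.3 to 184 CPM in GFPlo. The part of these genes was not tested. B-lineage markers were higher in GFPhi: their sum was 48.3 to 81.2 CPM against 41.3 to 45.4 CPM in GFPlo, and 4 of 7 tested were higher at an adjusted p under 0.05. Ms4a1 (CD20) rose by 7.94 ± 1.08 on the log2 scale. It was at 0, 0 and 0.0322 CPM in GFPlo and at 1.87, 7.58 and 2.235 CPM in GFPhi, so this size depends on values near 0. In a GFPlo library 0 to 2 of 8 markers were at 0 reads. The part of such cells in the members' levels was not tested.

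Markers of other cells also differed between Lmo2Tg and wild-type. Among markers of later thymocytes S1pr1 and Cd8a rose and Ccr9 and Ccr7 fell, with sums of 171 to 186 CPM in wild-type and 91.3 to 99.6 CPM in Lmo2Tg libraries. B-lineage sums were 61.6 to 66.1 and 29.4 to 30.8 CPM, myeloid sums 16.8 to 21.1 and 19.8 to 21.1, dendritic sums 0.605 to 2.08 and 3.48 to 6.29, innate-like and gamma-delta sums 240 to 252 and 312 to 362, erythroid sums 1.45 to 3.82 and 4.29 to 8.27, and stromal sums 199 to 203 and 216 to 236 CPM. Single markers moved more than these sums. Mpo rose (5.19 ± 0.62), from at most 0.382 CPM in wild-type to 7.47 and 8.14 CPM, as did Itgam (1.695 ± 0.288) and Itgax (1.78 ± 0.43). Lyz2 (-1.40 ± 0.17), Blk (-1.45 ± 0.19) and Epcam (-1.46 ± 0.11) fell. The part of such cells and genes in the members' levels was not tested.

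Within groups the members varied more than most genes. In the genotype experiment the pooled within-group SD of log2 CPM was 1.52 for Nr4a3, larger than that of 99.9% of the 11840 genes, and 0.95 for Ier3 (99.4%), 0.86 for Nr4a2 (99.1%), 0.80 for Egr3 (98.8%), 0.60 for Nr4a1 (96.8%), 0.60 for Egr1 (96.7%), 0.60 for Ier2 (96.7%) and 0.46 for Egr2 (93.2%). Nab2 had 0.22 (75.4%), and the median gene 0.13. Wild-type replicate 2 was above the mean of the other wild-type libraries for 8 members, by 1.35- to 2.35-fold, and below it for Nab2 (0.938). In the GFP experiment the SD was highest for Nab2 at 0.89 (95.1% of genes had less) and Ier3 at 0.86 (94.8%), and for Ier2 it was 0.14 (48.5%).

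The genes whose log2 CPM followed the members most closely over the 9 genotype libraries were searched among 11027 genes with a mean of at least 1 CPM. For Nr4a1 they were Atf4 (Pearson r = 0.995), Hexim1 (0.995), Dusp5 (0.992), Pnrc1 (0.992) and Tspyl1 (0.992). For Egr1 they were Slc19a2 (0.980), Tob1 (0.977), Supt5 (0.974), Ube2d3 (0.970) and Plk3 (0.964). For the mean of the members they were Cep57 (0.993), Per1 (0.990), Plk3 (0.989), Slc19a2 (0.987) and Spty2d1 (0.986). The size of the change differed among them: Atf4 was at 163 to 192 CPM in wild-type and 357 and 377 CPM in Lmo2Tg libraries, whereas Dusp5 was at 41.7 to 67.1 and at 500 and 393 CPM. Over the 6 GFP libraries and 10797 genes, Nr4a1 was most like Dgkd (0.998), Slc35b1, Tmem14c, Ssr2 and Mylpf (0.994), Egr1 was most like D5Ertd579e (0.998), Gng2, Vps26b, Tdrkh and Ly9 (0.997), and the mean of the members was most like Pex13 (0.999), Mlx, Mul1, Ubxn4 and Cap1 (0.996). These are descriptions over few libraries that share their group structure and scaling.

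The neighbours that overlap Nab2 had other patterns. Stat6 was at 201 to 222 CPM in GFPhi and 149 to 177 CPM in GFPlo libraries, and at 133 to 164 CPM over all genotype libraries. Nemp1 was at 62.9 to 76.6 CPM in GFPhi and 66.1 to 83.1 CPM in GFPlo libraries, and at 54.8 to 57.7 CPM in Lmo2Tg against 66.9 to 70.7 CPM in wild-type libraries.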

How the data were processed

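DN3 thymocytes were profiled by RNA-seq of poly-A captured RNA. The deposited values are counts of reads per gene in 2 tables, made by the authors and not normalized. The submitters' processing notes name STAR 2.4.2a, featureCounts, limma and mm10. Each table holds 22114 genes, of which 98.2% matched GENCODE M21 for positions and exon lengths. Of 16 labelled samples, 15 libraries were used. The counts of 1 further column, named as replicate 3 of Lmo2Tg;p21-/-, could not be tied to a labelled sample here and were not used, p21-/- replicate 3 is not analysed here, and the names of the Lmo2Tg columns also match the descriptions of 2 GFPlo samples, so these libraries were used by group only and are called a and b.

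Counts were filtered with filterByExpr (minimum count 10, minimum total 15), scaled by TMM and tested with edgeR 4.0.16 (R 4.3.3, quasi-likelihood, Benjamini-Hochberg adjustment over all genes tested), in 1 fit per table. A gene was called at more than a 2-fold change and an adjusted p under 0.01 (GFP) or 0.05 (genotypes), after thresholds the study gives for its GFP gene list and its genotype heat map. Levels are CPM, and log2 CPM used a prior count of 2. The script was tested on simulated data. Alternatives were DESeq2 1.42.0, voom in limma 3.58.1, RLE size factors, no filter, each library left out in turn, a replicate block, only the groups compared, chromosomes 2 and 15 left out of the scaling, a call without a minimum fold and, added after seeing the data, an adjusted p under 0.01 for the genotypes. Likeness was Pearson's r of log2 CPM.

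All 9 members were named. The other lists were regulators and relatives, other immediate-early genes, known targets, heat shock and dissociation stress, and markers of DN3 and later thymocytes, B lineage, myeloid, dendritic, innate-like and gamma-delta, erythroid and stromal cells. Genes of these lists were named from the up to 5 called genes with the largest change per comparison, and not all of those are given. Genes named for another reason were chosen after their values were seen. The members and lists were chosen with earlier results of these data known. The result of the target list between GFPhi and GFPlo is not reported here.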

Additional observations from a re-analysis of the deposited data

Results flagged for a closer look

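The effect of p21 loss differed between transgenic and non-transgenic cells, by the interaction test, for Nr4a1 (log2 difference of differences -4.23), Nr4a2 (-4.13) and Nr4a3 (-7.98). In each case the level was lower without p21 in transgenic cells, and overlapped wild-type in cells without the transgene. These values rest in part on p21-/- replicate 2, which held 18.6 times the Nr4a3 CPM of replicate 1. Without that library Nr4a1 was at -3.12 (adjusted p = 0.0038 in edgeR), Nr4a2 at -2.63 (adjusted p = 0.19) and Nr4a3 at -4.69 (adjusted p = 0.24). The calls depended on other libraries too, among them either Lmo2Tg;p21-/- library, as given above, and on the method. Without wild-type replicate 1 or 3 no member was called in the interaction. With limma-voom Nr4a2 (adjusted p = 0.053) and Nr4a3 (adjusted p = 0.17) were not called. Groups held at most 3 libraries, so no library was tested as an outlier.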

How the results depend on the processing

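Of the members' log2 differences under each alternative, 130 kept direction and call and 42 kept direction but lost the call, while among those not called 346 stayed so, 17 became called and 34 changed sign. Between GFPhi and GFPlo, members called went from 0 to 2 with DESeq2 and 3 at an adjusted p under 0.05 with no minimum fold, and genes called from 261 to 741 and 1721. Without the minimum fold, genes called went from 1420 to 4329 (Lmo2Tg against wild-type), 222 to 822 (Lmo2Tg;p21-/- against Lmo2Tg), 1230 to 3639 (Lmo2Tg;p21-/- against p21-/-) and 95 to 163 (interaction). In the interaction, members called went from 3 to 1 with voom and 6 with no filter, and genes called to 161 with DESeq2 and 224 with no filter. Members called between Lmo2Tg;p21-/- and p21-/- went from 1 to 0 with voom. At an adjusted p under 0.01 with a 2-fold change, chosen after seeing the data, members and genes called were 3 and 97 for Lmo2Tg;p21-/- against Lmo2Tg and 0 and 0 in the interaction, and 0 members were called between Lmo2Tg;p21-/- and p21-/-. Signs changed, all near 0, for p21-/- against wild-type in Egr3 with voom (0.12), and for Nab2 between Lmo2Tg;p21-/- and Lmo2Tg with RLE (-0.001), DESeq2 (-0.003) and only the groups compared (-0.006). The cause was not tested.

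With each library left out in turn, members called were 0 to 5 and genes 0 to 1035 for GFPhi against GFPlo, 1 to 5 and 48 to 218 for Lmo2Tg;p21-/- against Lmo2Tg, 0 to 3 members for Lmo2Tg;p21-/- against p21-/-, and 0 to 6 and 0 to 259 in the interaction. Log2 differences that changed sign ranged from -1.13 to 0.25 for Ier3 (GFP), and from -0.13 to 0.93 for Egr2 and -0.97 to 0.79 for Egr3 (Lmo2Tg against wild-type). For p21-/- against wild-type they ranged from -0.51 to 1.23 for Nr4a1, -0.75 to 1.48 for Nr4a2, -0.81 to 3.40 for Nr4a3, -0.87 to 0.26 for Egr1, -0.50 to 0.27 for Egr3, -0.14 to 0.076 for Nab2, -0.59 to 0.91 for Ier2 and -0.52 to 1.45 for Ier3. For Lmo2Tg;p21-/- against p21-/- they ranged from -1.13 to 0.61 for Nr4a1, -1.41 to 0.83 for Nr4a2, -0.83 to 0.23 for Egr1, -0.50 to 1.00 for Ier2 and -0.12 to 1.86 for Ier3. Nab2 ranged from -0.22 to 0.27 (Lmo2Tg;p21-/- against Lmo2Tg) and -0.17 to 0.33 (interaction). A group left with 1 library was assumed to vary like the others.

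Libraries with the same number did not deviate together in every pair (r across genes 0.07, -0.079 and 0.099 in the GFP experiment, -0.237 and 0.303 for p21-/- and wild-type). A replicate block took the genes called between GFPhi and GFPlo from 261 to 0, left the members at 0, and gave Nab2 0.079, Ier2 -0.03, Nr4a1 0.26 (from 0.61) and Nr4a3 1.40 (from 2.47) for p21-/- against wild-type. No paired analysis was possible because the numbers of the Lmo2Tg columns match labels of more than 1 group and were not used, for the comparisons with Lmo2Tg and the interaction. With 1 to 16 reads per genotype library, Egr3 is limited by depth.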
